A study of Mus musculus with 5 samples.

Results

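Malat1 and Neat1 are long non-coding RNAs that stay in the nucleus, transcribed from neighbouring genes on mouse chromosome 19. They were chosen by name, and are 2 of the 18349 genes in the deposited abundance list. Of the 90337 PABPC1 peaks in the deposited peak list, 18 lay in their spans on their strand, 15 in Malat1 and 3 in Neat1. Of the 11907 single-base deletion sites, 1 lay in Malat1 and 0 in Neat1.

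All 5 samples are MEL cells, an erythroleukemia line from mouse grown in standard medium; the labels name no genotype change or drug. The names the labels give the processed data mark CLIP-seq and mRNA-seq alike as day 0, with no statement of what the day counts from. In 3 samples, RNA touching PABPC1 was recovered by CLIP-seq: cells were irradiated repeatedly with ultraviolet light at 400 mJ/cm2, the lysate was digested with RNase for 10 min, PABPC1 was precipitated with an antibody, and the linked RNA fragments were sequenced as tags. A deleted base in a tag can mark the nucleotide that was cross-linked. The other 2 samples are mRNA-seq of RNA selected on oligo(dT) beads. The authors deposited 1 pooled value per peak, deletion site or gene, so no value below has a spread between replicates, and no test between samples was possible. MEL is 1 cell line, so the values describe that line. In such bulk samples, fewer expressing cells and less RNA per cell cannot be told apart.

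PABPC1 is the main cytoplasmic poly(A) binding protein. It coats the tail of messenger RNAs and helps their translation and turnover. Malat1 gathers in nuclear speckles, bodies rich in splicing factors. Neat1 is the scaffold of paraspeckles, bodies that hold RNA binding proteins such as NONO and SFPQ. Neat1 is made as a short RNA with a conventional poly(A) tail and as a long RNA, and the long RNA alone builds paraspeckles. Mature Malat1 and long Neat1 have no such tail: RNase P cuts them just upstream of a tRNA-like small RNA, leaving a genomically encoded A-rich tract that pairs with U-rich stretches in a triple helix. These RNAs therefore set 2 kinds of 3' end side by side.

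Sequences below are from GENCODE M21 transcripts on mm10, minus strand of chromosome 19, printed 5′ to 3′ with T for U. The first set holds the sequence under the tallest Neat1 peak (chr19:5842301-5842405), whose capitals mark the poly(A) signal, and the 41 nt around the deletion site of Malat1 (chr19:5797241-5797281), whose capital marks the deleted base. They are shown because they are the tallest Neat1 contact and the only contact in either RNA placed to a single base.

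Neat1 tallest peak: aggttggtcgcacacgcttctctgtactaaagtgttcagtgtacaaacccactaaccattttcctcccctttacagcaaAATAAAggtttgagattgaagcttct
Malat1 deletion site: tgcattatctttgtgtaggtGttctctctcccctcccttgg

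The second set holds the A-rich 3' ends known to form the triple helix, chr19:5795976-5796059 in Malat1 and chr19:5824708-5824780 in Neat1. Capitals mark a stretch of 16 nt and a stretch of 11 nt that both windows share. Neither window was touched by a peak.

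Malat1 3' tract: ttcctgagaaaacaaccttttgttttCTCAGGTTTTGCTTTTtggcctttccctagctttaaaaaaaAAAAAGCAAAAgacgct
Neat1 long 3' end: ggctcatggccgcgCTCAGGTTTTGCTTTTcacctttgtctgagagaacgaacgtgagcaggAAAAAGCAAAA

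In the mRNA-seq, Malat1 was abundant and Neat1 was near the middle of the expressed genes. That RNA was selected on oligo(dT) beads, while mature Malat1 and long Neat1 lack a poly(A) tail. Their values, and the ratios to RPKM below, therefore describe the selected RNA and may not match levels in the cell. How well such RNAs were recovered was not tested. Abundance is in RPKM, reads scaled by gene length and library size, 1 value a gene from the authors. Malat1 had an RPKM of 206, rank 622 in the list. Neat1 had an RPKM of 13.6, rank 7044 and above 42.9% of the other genes with RPKM of at least 1. Multiplied back by gene length, these values are 50745 reads on Malat1 and 9935 reads on Neat1, each whole within 0.01, of 35251228 reads in all. Malat1 alone took 0.144% of the reads and Neat1 0.0282%.

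The length used for Neat1 matters for its level. GENCODE gives Neat1 4 transcripts, among them the unspliced Neat1-201 of 20771 nt (chr19:5824708-5845478) and the short Neat1-202 of 3004 spliced nt, which ends at position 5842307. The whole number of reads was obtained with the full 20771 nt, so the deposited RPKM treats Neat1 as a long RNA. If all 9935 reads came from Neat1-202, its RPKM would be 93.8. How the reads divided between short and long Neat1 cannot be read from 1 value a gene. Malat1 also has 4 annotated transcripts, and its main one, Malat1-201, is a single exon of 6983 nt (chr19:5795690-5802672).

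Both RNAs were listed with PABPC1 peaks, like most expressed genes. An exonic peak was found for 87.0% of genes with RPKM of at least 1, and for 64.1% of the 142 lincRNA genes (GENCODE's class for long intergenic non-coding RNAs) among them. The 15 peaks of Malat1 summed to a height of 438 tags, peak height being the authors' score read as the largest number of tags over one base. The 3 peaks of Neat1 summed to 65 tags. No peak on the opposite strand overlapped either gene, and none lay on either strand in the 22035 nt between them.

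Malat1 carried many wide peaks along its length, of similar and moderate height. Heights ran from 16 to 64 tags with a median of 25, against a median of 9 and a range of 2 to 10814 in the whole list, so each was taller than most listed peaks and far below the tallest. Widths ran from 72 to 740 nt with a median of 145, against a list median of 66 nt. Together the peaks covered 3552 nt, 50.9% of the RNA.

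At the 5' end of Malat1, 2 peaks stood beside each other. The first spanned nt 9 to 131 with 43 tags and the second nt 138 to 282 with 45 tags. They were the most A-rich of the 15 peaks, the first at 37.4% A and the second above it, where the whole RNA held 28.6% A. The peak at nt 6318 to 6416, with 16 tags, also came to 37.4%.

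A long stretch from nt 283 to 1603 held no listed peak, the largest gap within Malat1. Past it came low peaks of 18 tags at nt 1604 to 1861, 16 tags at nt 2072 to 2143 and 25 tags at nt 2899 to 3026. The middle of the RNA was then almost filled. From nt 3089 to 5530, 7 peaks followed each other with gaps of at most 27 nt, in 5' to 3' order of 36, 64, 16, 29, 22, 18 and 42 tags. This block of 2442 nt is 35.0% of the length, and its peak heights summed to 227 tags, 51.8% of the summed height. Its second peak, nt 3700 to 4439 (chr19:5798234-5798973), was the tallest and widest of Malat1, with 64 tags over 740 nt.

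Toward the 3' end the peaks thinned again. They had 32 tags at nt 5809 to 6033, 16 tags at nt 6318 to 6416 and 16 tags at nt 6492 to 6599. The last 384 nt before the annotated end held none. In 4 equal parts of the length from the 5' end, summed height was 106, 77, 149 and 106 tags, so every part held peaks and the third held the most. Peaks covered 23.5%, 41.2%, 97.2% and 41.5% of those parts.

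**Figure D1:**
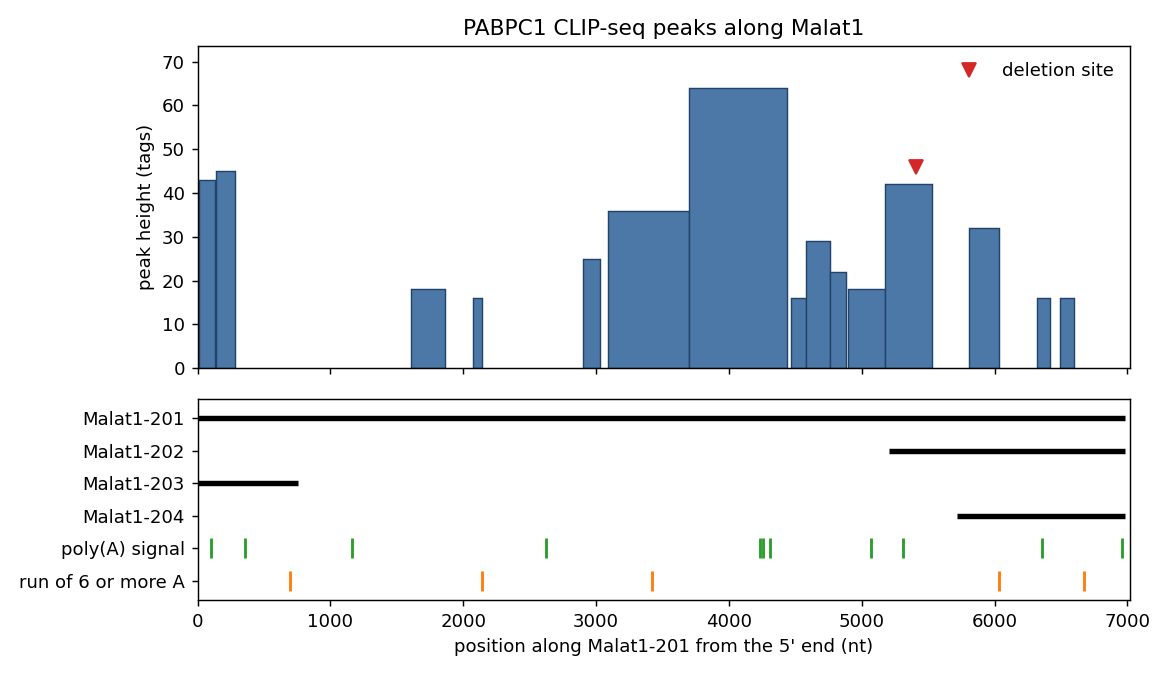
PABPC1 peaks along Malat1. The x axis is the position along Malat1-201 from the 5' end in nt, and each bar spans 1 peak with its height in tags; the triangle marks the deletion site, black lines give the span of each annotated transcript, introns included, and ticks give poly(A) signals and runs of at least 6 A. The 7 neighbouring peaks between nt 3089 and 5530 include the tallest at 64 tags, and the longest A run, near the 3' end, lies outside every peak.

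The profile of Malat1 was flatter than that of most genes with many peaks. Its tallest peak held 14.6% of its summed height. Across 2651 other genes with RPKM of at least 1 and 10 or more exonic peaks, the median was 38.8%, and 1.83% of them were lower than Malat1. At an RPKM within 2-fold of that of Malat1, 931 protein-coding genes had a median tallest peak of 358 tags. Only 4.78% of these had a tallest peak below the 64 tags of Malat1, although its 15 peaks exceeded the number in 87.0% of them, whose median was 7. The 2 widest peaks of Malat1 were wider than 99.6% and 99.8% of all listed peaks; the rule by which neighbouring tags were joined into 1 peak is not stated in the labels.

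**Figure D2:**
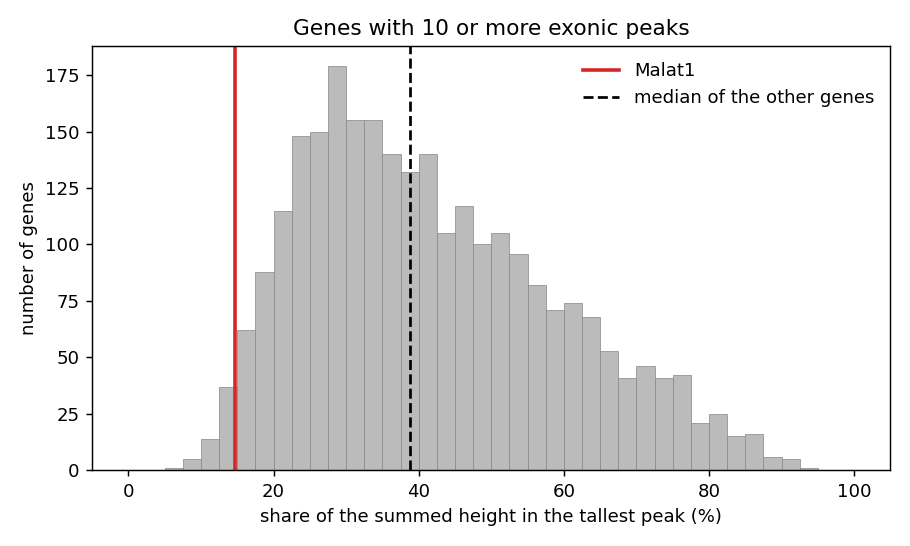
Share of a gene's summed peak height held by its tallest peak, in percent, for genes with RPKM of at least 1 and 10 or more exonic peaks; bars count genes. The red line is Malat1 at 14.6% and the dashed line the median of the other 2651 genes at 38.8%.

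Neat1 showed the opposite arrangement. Its 3 peaks all lay in the first 3178 nt of the 20771 nt locus, within or across the end of the short transcript. From 5' to 3' they stood at nt 2123 to 2187 with 10 tags, nt 2943 to 2994 with 11 tags and nt 3074 to 3178 with 44 tags. The tallest held 67.7% of the summed height, close to the median of 69.4% over 1102 other genes with 3 exonic peaks. The 3' peak was thus about as dominant as in other genes with as few peaks.

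That peak of 44 tags spanned the annotated end of Neat1-202, with 99 nt before the end and 6 nt beyond it. The poly(A) signal AATAAA printed above in capitals starts 19 nt before that end. The tallest peak spanned an annotated transcript 3' end in 43.9% of the 10731 expressed genes that had an exonic peak, and in 30.8% of the 91 lincRNA genes among them. Neat1 was in that class and Malat1 was not.

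Beyond Neat1-202, the 17599 nt of the long RNA, which also hold another annotated transcript, of 711 spliced nt, had 0 peaks. Peak-covered positions were 6.81% of the first 3172 nt and 0.0341% of the rest, the latter being the 6 nt that the tallest peak overhangs. The long RNA closes with A-rich sequence, as printed above, and a small RNA gene of 56 nt, Gm27702, starts directly after it, also with 0 peaks. Because the abundance of the long RNA was not measured separately, few long transcripts and few PABPC1 contacts on each of them cannot be told apart here.

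**Figure D3:**
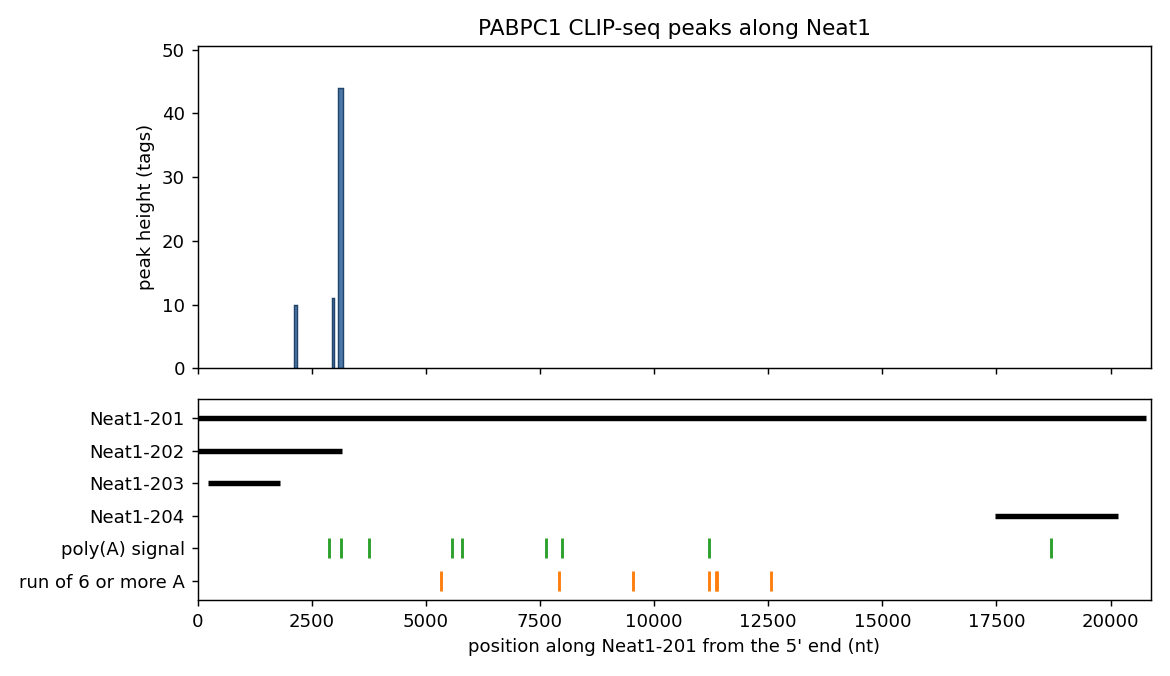
PABPC1 peaks along Neat1, drawn as for Malat1, with position along Neat1-201 in nt on the x axis and peak height in tags on the y axis. All 3 peaks lie before nt 3178, the tallest at 44 tags over the end of Neat1-202, and none in the remainder of the long RNA.

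The A-rich tract at the 3' end of Malat1 was also outside the peaks. Its longest run of A, 12 nt at nt 6674 to 6685 (chr19:5795988-5795999), lay 75 nt 3' of the last peak and 298 nt before the annotated end. It is the only run of more than 6 A in Malat1. The annotated transcript runs on past this tract, and an AATAAA near its end, at nt 6962 to 6967, was likewise outside every peak. The last 50 nt of that model, chr19:5795690-5795739, show it in capitals.

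Malat1 annotated 3' end: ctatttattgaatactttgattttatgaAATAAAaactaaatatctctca

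Few A runs of Malat1 lay wholly under a peak. Of 5 runs of at least 6 A in Malat1, 1 lay wholly under a peak, at nt 3422 to 3427 in the peak of 36 tags. Another, at nt 2139 to 2144, was crossed by the edge of a peak, and that at nt 6034 to 6039 began directly after a peak. Neither is counted as under a peak here. Counted as overlapping AAAAAA matches, 1 of 11 was wholly under a peak, where 50.9% of all positions of Malat1 were. Of these 11 matches, 7 come from the 1 run of 12 nt. In 1125 protein-coding genes with RPKM of at least 100, 63.5% of 3122 AAAAAA matches, counted in the same way, and 67.5% of the 80 runs of at least 12 A lay under a peak, where 43.7% of all positions did. Neat1 had 7 runs of at least 6 A, all beyond the end of Neat1-202 and none under a peak. These shares are descriptions of the sense strand of the longest transcripts and were not tested. Whether tags that lie in a run of A could be placed on the genome was not tested.

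Some poly(A) signals within Malat1 lay under peaks, in numbers too small to compare with other genes. Of its 4 AATAAA, 3 were under a peak, at nt 4254 and 4308 in the peak of 64 tags and at nt 5313 in the peak of 42 tags. In the 1125 abundant protein-coding genes the share was 77.2% of 1945, where 43.7% of positions were covered. Of the 7 ATTAAA of Malat1, 4 were under a peak, 57.1%, near the 50.9% of positions covered; the share in abundant mRNAs was 59.4% of 1184. The hexamer ATATAA occurred 2 times in Malat1 and was under a peak once, in that of 22 tags, beside 65.6% of 514 in abundant mRNAs. The windows around the 3 AATAAA under peaks, signal in capitals, are shown because they lie in the tallest and the fourth tallest peak. In 5' to 3' order the windows held 32.6%, 43.5% and 21.7% T.

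Malat1 nt 4234 to 4279: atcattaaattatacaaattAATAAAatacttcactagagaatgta
Malat1 nt 4288 to 4333: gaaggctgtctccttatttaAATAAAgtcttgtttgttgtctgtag
Malat1 nt 5293 to 5338: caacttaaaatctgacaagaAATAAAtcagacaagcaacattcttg

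Of the 15 Malat1 peaks, 8 held none of these 4 hexamers, a count not compared here with peaks of other genes. A content did not separate peaks from the rest of Malat1: A made up 28.5% of the bases under peaks and 28.8% of those outside, while T made up 30.8% and 26.9%. The lowest share in a single peak was 18.0% A. Within 20 nt of the peak midpoints it was 28.9% in Malat1 and 25.2% in Neat1. In Neat1, where peaks covered 222 nt, A was 26.6% under peaks and 22.6% outside.

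The 1 deletion site of Malat1 lay far from its end and in a pyrimidine-rich sequence. At nt 5412 (chr19:5797261-5797261), 1571 nt before the annotated end, 6 of 40 tags carried a deletion, 15.0% (95% Clopper-Pearson interval 5.71 to 29.8, counting error only), beside a median of 12.8% over all sites. It fell within the peak of 42 tags at nt 5176 to 5530. The deleted base was G, which made up 3.52% of the deleted bases at 9510 exonic sites placed on a transcript, where T made up 48.1% and A 45.0%. The 41 nt window printed above was 43.9% T and 29.3% C with 7.32% A. It held none of the 4 hexamers, which lay in the same window at 51.2% of those 9510 sites.

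Such sites were found in 31.4% of genes with RPKM of at least 1. Among protein-coding genes with RPKM within 2-fold of the member, they were found in 77.6% around Malat1 and in 29.2% around Neat1. By peak, 1 of the 15 of Malat1 held a site, 6.67%, beside 4.38% of all peaks of 16 to 64 tags. Of peaks as tall as those of Neat1, from 10 to 44 tags, 1.99% held one.

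Set against abundance, both RNAs had a low summed peak height per mRNA-seq read. That sum counts each peak by its height alone, whatever its width. Malat1 peaks had a median width of 145 nt, against 66 nt in the whole list. How peak width bears on these comparisons was not tested. Summed height was divided by the length in kb and by RPKM. Since RPKM is itself per kb, this quotient is in effect summed height per mRNA-seq read. It does not control for length, because a longer RNA gives more reads whether or not it carries more peaks. This quotient was 0.304 for Malat1 and 0.231 for Neat1. The median was 2.29 over 10211 protein-coding genes with RPKM of at least 1 and 1.96 over all 12331 genes. Of protein-coding genes, 6.07% lay below Malat1 and 4.98% below Neat1.

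Among lincRNAs they were less extreme. The 142 lincRNA genes with RPKM of at least 1 had a median quotient of 0.664, and 42.6% of the others lay below Malat1 and 41.1% below Neat1. Among the 40 others with RPKM of at least 10, of which 32 had a peak, 35.0% lay below Malat1 and a smaller share below Neat1. By this quotient Malat1 and Neat1 were low beside mRNAs and nearer the middle beside other lincRNAs, of which many had no peak. With pooled files, the difference between Malat1 and Neat1 has no error.

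Length changes where Neat1 falls. On the scale log2((summed height + 1)/(RPKM + 1)), which is not divided by length on the CLIP side, Malat1 stood at 1.08 and Neat1 at 2.18, with a median of 2.43 over all genes and 2.78 over protein-coding genes. There 27.6% of all other genes were below Malat1 and 44.8% below Neat1. Of other lincRNA genes, 54.6% were below Malat1 and 73.8% below Neat1, so on this scale Neat1 stood well above the middle of its class. With height per kb in the same formula the shares were 11.2% and 10.3%. The long locus assigned to Neat1 lowers its RPKM but not its summed height. On this scale, with all reads on Neat1-202, it would stand at -0.52. The quotient per kb and RPKM is the same for either length, since the length cancels.

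**Figure D4:**
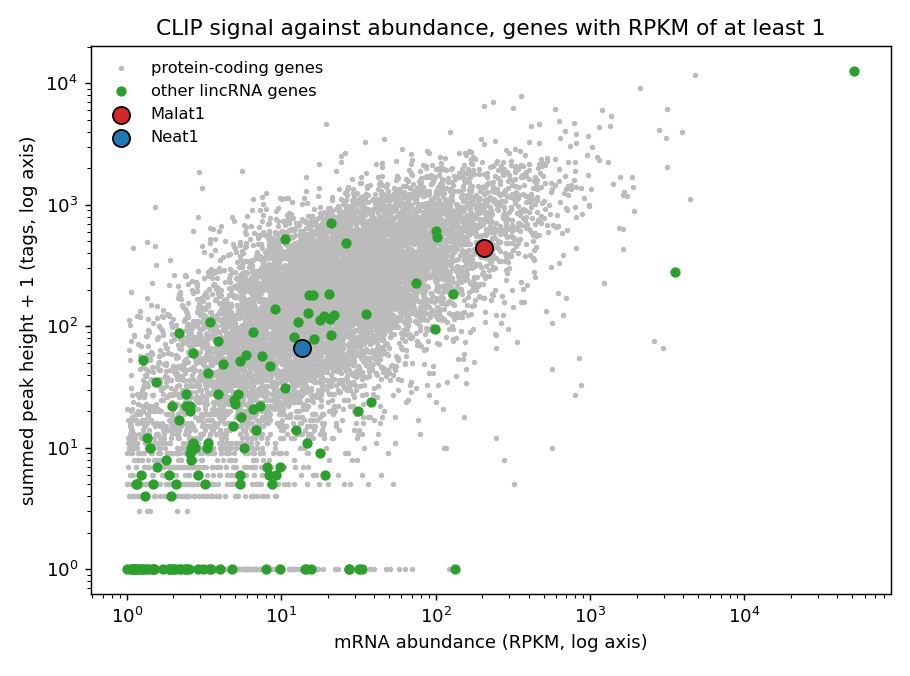
Summed peak height plus 1, in tags, against RPKM, both on log axes, for protein-coding genes (grey), lincRNA genes (green), Malat1 (red) and Neat1 (blue) with RPKM of at least 1. Points along the bottom edge have no exonic peak; Malat1, at RPKM 206 and 438 tags, lies below the median of 626 tags of the protein-coding genes within 2-fold of its RPKM.

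Genes nearest in abundance show how far the values scatter. Just above Malat1 in RPKM were the pseudogene Gm14017 with a summed height of 12, Lsm3 of the LSM ring with 452 and the prolyl isomerase gene Fkbp3 with 951. Just below it were the processed pseudogene RP24-570C10.6 with 0, Qtrt1 of queuosine tRNA modification with 171 and the complex I gene Ndufa13 with 6486. The 438 tags of Malat1 lie within this range. Around Neat1, the next genes above were Spryd4 with 47, the centriole gene Stil with 230 and the ubiquitin-conjugating enzyme gene Ube2t with 46. The next below were Zbtb22 with 384, the small GTPase gene Rap2b with 105 and Brf2 of RNA polymerase III initiation with 38, so the 65 tags of Neat1 were again inside the range. Its exonic length, 20771 nt, was the longest of these 7 genes.

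By the smallest distance in log2(RPKM + 1), log2(summed height + 1) and log2(number of peaks + 1), the 5 genes most like Malat1 were Pitrm1 (distance 0.15), the helicase gene Dhx9 (0.24), Sltm (0.25), Acsl5 (0.31) and Dld (0.38). All 5 are protein-coding and had 14 to 17 peaks. Their tallest peaks, from 220 tags in Sltm to 274 in Pitrm1, exceeded the 64 of Malat1, a value the distance did not use. Those most like Neat1 were Ttc32 (0.02), Hint2 (0.10), Hexim2 (0.10), Fam73b (0.11) and Zfp599 (0.12), each with 3 peaks and a summed height of 65 to 68. None of these 5 had a deletion site, where 29.2% of protein-coding genes with RPKM within 2-fold of Neat1 had one. The measure rests on 1 pooled CLIP list and 1 pooled RPKM list, and says nothing of shared function.

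The cells also held mRNAs for proteins that work with these RNAs, while the proteins themselves were not measured. All 20 genes of a list of paraspeckle proteins had RPKM of at least 1 and a peak, beside 87.0% of all genes at that level. A deletion site was found in 10 of 20, beside 31.4% of all genes and 77.6% of protein-coding genes as abundant as Malat1. The median quotient of the list, height per kb over RPKM, was 1.97, beside 1.96 over all genes. Of these, 19 of 20 were above both Malat1 and Neat1; on the log2 scale not divided by length, 19 were above Malat1 and 16 above Neat1. The exception was Hnrnpa1 at 0.179, with RPKM 20.4 and 1 peak of 7 tags. It has many processed pseudogenes, and whether its reads and tags are shared between copies was not tested. Smarca4, a chromatin remodeller, had RPKM 342 and a summed height of 987. Nono, a core paraspeckle protein, had RPKM 193 and 881. Matr3 of the nuclear matrix had RPKM 171 and 2215. The largest heights of the list were those of the cleavage factor gene Cpsf6 with 3292, Matr3 and Hnrnpk with 1814. Each of these mRNAs had a taller summed signal than Neat1, and than Malat1 as well.

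A second list held speckle proteins, splicing factors, readers and writers of m6A, and the RNase P and tRNA-end enzymes that cut the 3' ends. Of 25 genes 24 were listed, all 24 with RPKM of at least 1 and a peak, and 15 with a deletion site, to be read against the same shares of all genes. Their median quotient was 1.66, and 24 of 24 were above both Malat1 and Neat1. On the log2 scale not divided by length, 20 of 24 were above Malat1 and 14 of 24 above Neat1. U2af2, which binds the polypyrimidine tract, had RPKM 289 with a summed height of 273. Hnrnpc had RPKM 239 with 1350, and Srsf7 RPKM 193 with 679. Srsf1, which encodes a splicing factor known to bind Malat1, had the largest height, 1427 tags, followed by the speckle core gene Son with 1374.

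Few of the other nuclear long non-coding RNAs looked for were listed at RPKM of at least 1. The names of all lists were matched as written. An unlisted name may thus be an RNA without reads or one under another symbol, which was not tested. Of 22 names, 12 were listed and 6 had RPKM of at least 1. Each of the 6 had a peak, beside 87.0% of all genes and 64.1% of lincRNA genes at that level. A deletion site was found in 3, beside 31.4% of all genes. The median quotient of the 6 was 2.37, and 5 of 6 were above both Malat1 and Neat1. On the log2 scale 5 were above Malat1 and 4 above Neat1. Pvt1 had RPKM 10.5 with a summed height of 522, and Tug1 RPKM 17.3 with 415, each more than the 65 tags of Neat1. Their RPKM is similar to that of Neat1 only with its reads spread over 20771 nt. With all its reads on Neat1-202, the RPKM of Neat1 would be 93.8. The gene below both members was Gm26917 at RPKM 3527 with 280 tags. Xist, the RNA that coats the inactive X chromosome, was at RPKM 0.0206 with 0 peaks.

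Long non-coding RNAs that host snoRNAs or are found in the cytoplasm had the highest median quotient of the 4 lists. On the log2 scale not divided by length their median was 3.22, and that of the other nuclear long non-coding RNAs was higher, at 3.58. Of 24 names 9 were listed, all at RPKM of at least 1, at a median quotient of 13.0. A peak was found in 8 of 9, beside 87.0% of all genes at that level, and a deletion site in 5, beside 31.4%. The 8 with a peak were above both members on either scale. The row named Snhg7 has 0 peaks but is annotated as a snoRNA with 139 exonic nt, so it gives no value for the long host RNA. Gas5 had RPKM 143 with a summed height of 1600, Snhg5 RPKM 103 with 968, and Mir17hg RPKM 102 with 546. Snhg3 reached 929 tags at RPKM 51.4. Gas5, at a lower abundance than Malat1, thus had a summed height of 1600 with 851 exonic nt, where Malat1 had 438 with 6983. Both are sums of peak maxima and do not count all tags on the RNA. The differences between lists have no replicate error and were not tested.

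**Figure D5:**
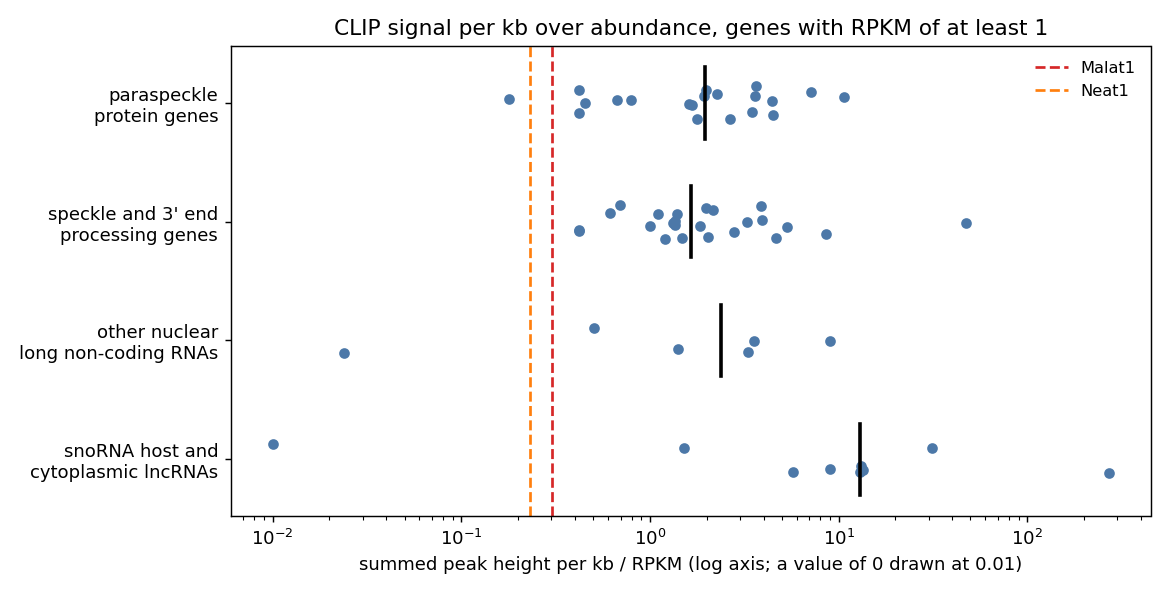
Summed peak height per kb divided by RPKM, on a log axis, for genes of the 4 lists with RPKM of at least 1; each dot is a gene, black bars are list medians, and the dashed lines are Malat1 (0.304) and Neat1 (0.231). All but 1 gene of each list, or all in the speckle list, lie right of both lines; the leftmost dot of the last list is the snoRNA row Snhg7, whose value is 0.

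The erythroid identity of the line was seen in its markers. All 12 erythroid markers were listed at RPKM of at least 1, from 5.61 for Hbb-bt to 428 for Klf1, with Gata1 at 211. Of 10 fibroblast markers, 5 were listed, and 2 reached RPKM 1: Thy1 at 65.3 and Pdgfrb at 2.60. Their part in the values of Malat1 and Neat1 was not tested.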

How the data were processed

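PABPC1 CLIP-seq (3 samples) and mRNA-seq (2 samples) of MEL cells were analysed from the authors' pooled files. The peak list holds a deposited score per peak, read as height in tags because 99.8% of the 10137 deletion sites inside a peak had no more tags than its score. The deletion list holds a deposited count of tags with a deletion and the covering tags. Abundance is RPKM computed by the authors, with genes at 0 not listed. It rests on 35251228 reads: 100% of 3560 genes under 200 reads gave whole numbers within 0.01. Per the submitters' processing notes the tools included TopHat2 2.0.12, HTSeq 0.6.0, Novoalign 3.02.02 and cutadapt 1.4.2, with genome build mm10. Peak caller, thresholds, strand setting and treatment of reads shared by overlapping genes are not given in the sources used here.

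Peaks were placed by midpoint, by strand, on GENCODE M21 basic exons (mm10, 1-based). Of 18349 identifiers, 290 were not in the annotation. Hexamers were searched on the sense strand, within 20 nt of a deletion. Scripts were tested on simulated data (Python 3.11.15, SciPy 1.17.1). Named genes were the members, the 5 nearest in pattern, 3 next above and below in RPKM, and the 3 most abundant and 3 with most height of each list. The members and lists were chosen with earlier results of these data known. Percentiles are descriptions, since genes are not replicates.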

Additional observations from a re-analysis of the deposited data

How the results depend on the processing

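Numbers of peaks, summed heights and deletion sites of both genes did not change with peaks of at least 9 tags, another placement of peaks, deletion sites inside peaks alone or sites joined within 10 nt. Several of these settings could not change them. The lowest peak had 16 tags in Malat1 and 10 in Neat1. An exon spans the whole of each gene, so placement by exon equals placement by span. With at most 1 deletion site in a gene, there were none to join. The share of A around peak midpoints moved within its counting interval with windows of 50 nt. Other values depended on the choices. On the log2 scale, the tallest peak alone gave -1.67 for Malat1 and 1.63 for Neat1, a pseudocount of 0.1 gave 2.25 for Neat1, and all reads on Neat1-202, added after seeing the data, gave -0.52. The percentile of Malat1 was 22.9 with RPKM of at least 10, 45.2 over every listed gene, 15.8 among protein-coding genes, 11.2 per kb, 26.7 with a pseudocount of 0.1, 10.9 by the tallest peak and 40.2 among genes within 2-fold in RPKM, the last added after seeing the data. For Neat1, the first 4 of these settings gave 42.5, 58.9, 35.2 and 10.3, the tallest peak 50.6, and genes within 2-fold 31.3. No paired analysis was possible because the files hold 1 pooled value for all replicates, and for the same reason leaving out replicates was not run. No listed deletion site had fewer than 3 deletions, which limits what peaks of 10 to 64 tags can show.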

Other observations

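Some A runs lay at the edges of Malat1 peaks, a pattern seen after the values were known and not tested. The run at nt 2139 to 2144 was crossed by the 3' edge of the peak at nt 2072 to 2143. The run at nt 6034 to 6039 began directly after the peak at nt 5809 to 6033. A peak of 609 nt in Malat1 also covered Gm27694, a misc_RNA gene of 86 nt annotated within it (chr19:5799000-5799085).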
